A study of Hydra viridissima with 2 samples.

Results

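The genes described here are 42 host gene models of the green hydra Hydra viridissima whose transcript level was higher in polyps with their algae than in polyps without them. They were chosen by their counts from a table of 34573 gene models, under 3 conditions. A member lies outside scaffold 60, has a mean level of at least 10 CPM (counts scaled to a library total of 1000000), and has a log2 ratio of at least 0.7 between the libraries, symbiotic over aposymbiotic, after adding 0.5 CPM to each. The first 2 conditions were met by 9484 models, called the tested host genes below. The last condition used the same contrast that is described here, so the size of each difference is a description of the chosen genes and carries no test. Scaffold 60, whose 15 models had counts in the symbiotic library alone, is outside the rule.

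One library came from symbiotic (green) polyps of clone 2, which carry algae, and one from aposymbiotic polyps of clone 2, which do not. Each was made from the pooled RNA of about 200 large animals, taken 2 to 3 days after their last meal of brine shrimp. Both cultures were kept at 24 °C and both RNA preparations had an integrity number of 10. Whole animals were extracted, ribosomal RNA was removed enzymatically, and read pairs were sequenced. How the aposymbiotic polyps were freed of algae is not stated in the labels. The symbiotic library held 6905650 counted read pairs and the aposymbiotic library 5533508, so 1 count is worth 0.145 CPM in the symbiotic and 0.181 CPM in the aposymbiotic library. With 1 library per condition there is no replicate check: every value is that of a single pool, and every interval covers counting error only. More cells of a type and more RNA per cell cannot be told apart in whole-polyp RNA.

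Green hydra is a small freshwater polyp whose body is a tube of an outer and an inner epithelium. Its algae, relatives of Chlorella, live inside the digestive epithelial cells, each enclosed by a host membrane. The partnership is known as an exchange of sugar from algal photosynthesis for nutrients and shelter from the host. The table gives identifiers and positions without gene names, so the roles of the 42 genes are not known here, lists of transport, stress or cell type genes could not be formed, and the whole-animal label could not be set against marker genes. The genes are therefore described by their place in the assembly, their exon structure and the models that resemble them. A symbol such as scaffold 8 at 13842505 means the scaffold and the first position of the model in the authors' annotation. The sources used here name no genome build.

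Most of the 42 genes differed moderately, and 2 had the largest log2 ratios, 3.85 and 3.39, ahead of the next at 2.13. The second of these rests on 10 aposymbiotic counts. With 5 CPM added it stood at 2.08, near the next at 1.92. The log2 ratio ran from 0.70 to 3.85 with a median of 0.84, against a median of -0.0083 over all tested host genes. At a log2 ratio of 0.7 or more, 42 of 9484 tested host genes were called, 0.443%. The mirrored rule of -0.7 or less took 114 genes, 1.2%, called lowered genes below. A log2 ratio of at least 1 was reached by 11 of the 42 (0.116% of tested host genes), and one of at least 2 by 3 of them (0.0316%); at -1 or less there were 52 genes (0.548%). The exact 95% counting interval of the CPM ratio lay above equality in all 42, as it did for 12.6% of tested host genes. It lay wholly above the threshold of 0.7 in 9 of them. Since these ratios chose the genes, nothing is read from the shares. Folds are plain ratios of CPM, whereas log2 ratios carry the added 0.5 CPM; the intervals of both were computed without it.

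The 42 genes together took 0.255% of the symbiotic and 0.128% of the aposymbiotic counts. Their levels spanned 13.2 to 276 CPM in the symbiotic library, with a median of 38.2, and 1.81 to 164 CPM in the aposymbiotic library, with a median of 17.3. None was absent without algae: the lowest aposymbiotic count was 10 and 22 of the 42 had fewer than 100. The filter on mean level bears on this. A model on scaffold 7 with 126 symbiotic and 0 aposymbiotic counts missed the set at a mean of 9.12 CPM. By mean level, 14 genes lay between 10 and 20 CPM, 14 between 20 and 50, 10 between 50 and 100, and 4 at 100 or more. Those are 0.602%, 0.433%, 0.517% and 0.201% of the tested host genes in these classes. Over all tested genes the log2 ratios spread more at low level, with a robust standard deviation of 0.279 in the lowest class and 0.160 in the highest. Of the 2 genes with the largest ratios, one lay in the lowest class and one at 50 to 100 CPM, whereas no member at 100 CPM or more passed a log2 ratio of 0.83.

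**Figure D1:**
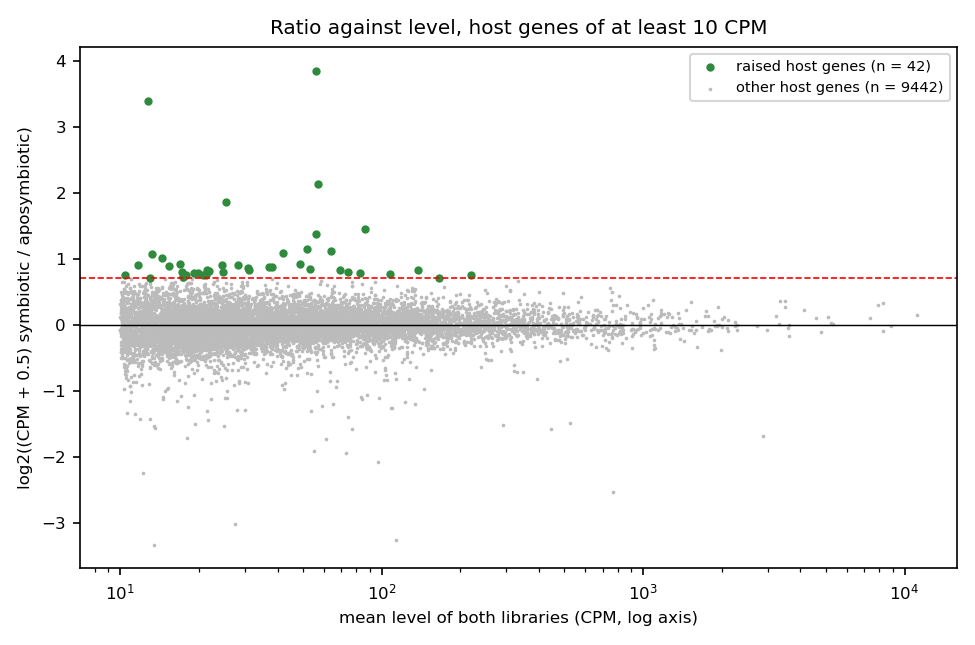
Each point is a tested host gene: the horizontal axis gives the mean CPM of both libraries on a log axis and the vertical axis the log2 ratio of the CPM values, symbiotic over aposymbiotic, with 0.5 CPM added. The 42 raised genes (green) lie above the dashed threshold of 0.7, 3 of them above a log2 ratio of 2, and the band of the other genes (grey) narrows as the level increases.

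The first gene by counting certainty (the lower end of the interval) was cHydvir-v1B3C1_g31966 on scaffold 8, positions 13842505 to 13844047, minus strand, with 5 exons and 1026 nt of coding length. It had 728 counts (105 CPM) in the symbiotic and 38 counts (6.87 CPM) in the aposymbiotic library, a 15.4-fold ratio of CPM (95% counting interval 11.1 to 21.9). No model of similar exon structure was found for it by the definition given further on. Its nearest models did not differ in the same way: the one to the right had 273 CPM in the symbiotic and 262 CPM in the aposymbiotic library, and the one to the left 2.75 CPM in the symbiotic and 4.34 CPM in the aposymbiotic library.

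The second was cHydvir-v1B3C1_g27998 on scaffold 6, positions 14968064 to 14971520, minus strand, with 7 exons and 1203 nt. It had 164 counts (23.7 CPM) in the symbiotic and 10 counts (1.81 CPM) in the aposymbiotic library, a 13.1-fold ratio (6.97 to 27.9). Its aposymbiotic count and its aposymbiotic level per kilobase of coding length were the lowest of the 42. The neighbouring 10-exon gene to its left, on the opposite strand, stood at 20.7 CPM in the symbiotic and 20.2 CPM in the aposymbiotic library.

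The next gene, on scaffold 12 (2003720 to 2005807, plus strand), has 6 exons and 1437 nt. It had 646 counts (93.5 CPM) in the symbiotic and 116 counts (21.0 CPM) in the aposymbiotic library, 4.46-fold (3.66 to 5.49). On rank 4 was a gene on scaffold 4 (1393283 to 1406103, minus strand) of 10 exons and 6339 nt, with 277 symbiotic and 59 aposymbiotic counts, 3.76-fold (2.83 to 5.07). More than 50% of that coding length is 1 exon of 3649 nt. Per kilobase of coding length it was a low transcript, at 6.33 CPM per kb in the symbiotic and 1.68 CPM per kb in the aposymbiotic library.

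Ranks 5 to 9 were between 2-fold and 3-fold. A 4-exon gene on scaffold 1 (14273738 to 14275209) had 877 symbiotic and 255 aposymbiotic counts, 2.76-fold (2.39 to 3.18). The 3-exon gene on scaffold 9 (7565615 to 7569224, 1917 nt) had 563 symbiotic and 172 aposymbiotic counts, 2.62-fold (2.21 to 3.13). A 2-exon gene on scaffold 11 (1814427 to 1815874, 1290 nt) had 495 symbiotic and 177 aposymbiotic counts, 2.24-fold (1.88 to 2.68). All 3 also had more than 100 aposymbiotic counts, unlike 22 of the 42 members. Among the shortest members, the 4-exon model on scaffold 12 (2186476 to 2188021, 537 nt) had 607 symbiotic and 222 aposymbiotic counts, 2.19-fold (1.88 to 2.57). On scaffold 3, an 8-exon gene (17595503 to 17601558, 1953 nt) had 395 symbiotic and 148 aposymbiotic counts, 2.14-fold (1.77 to 2.60). In each of these 5 the lower end of the interval was at least 1.77-fold. The genes were chosen by this ratio and ranked by that lower end, so no support is read from it.

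**Figure D2:**
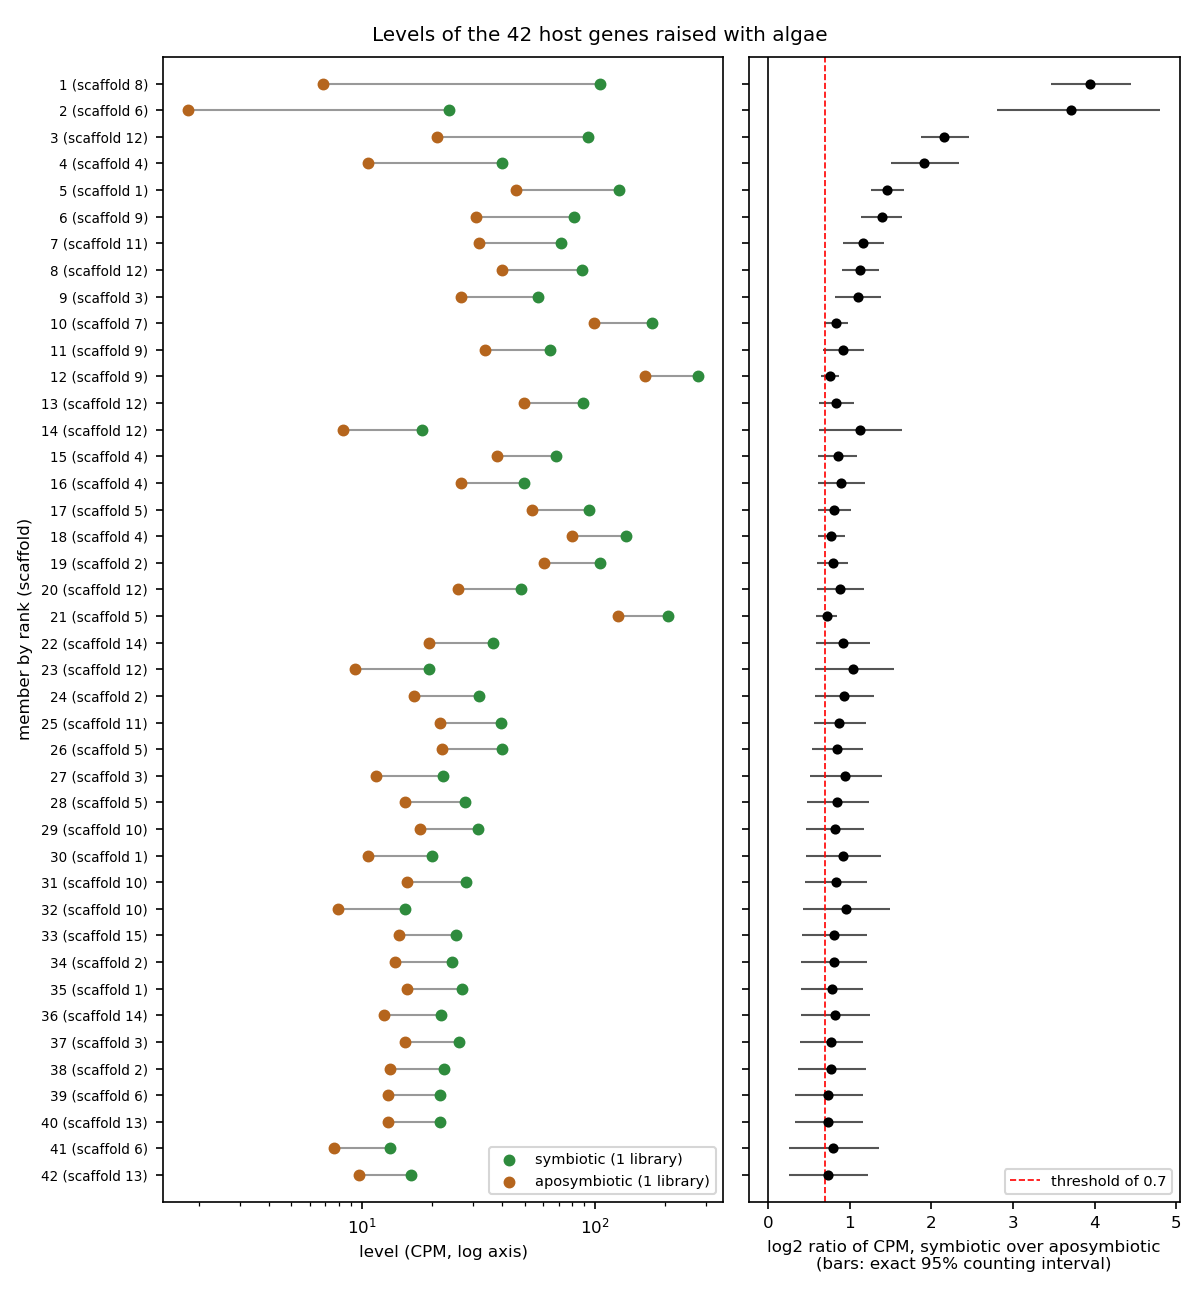
The left panel gives the CPM of each of the 42 genes in the symbiotic (green) and the aposymbiotic (brown) library on a log axis, and the right panel the log2 ratio of plain CPM with its exact 95% counting interval (bars); rows are ordered by the lower end of that interval. The first 9 intervals lie wholly above the dashed threshold of 0.7, and the interval of the last gene reaches down to 0.25.

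Members with the most counts had smaller ratios with narrow intervals. The first of these was a gene on scaffold 9 (12798246 to 12801114, 7 exons, 1074 nt), with 1909 counts (276 CPM) in the symbiotic and 905 counts (164 CPM) in the aposymbiotic library, 1.69-fold (1.56 to 1.83). Next came a gene on scaffold 5 (14323388 to 14327698, 2 exons, 786 nt) with 206 CPM in the symbiotic and 125 CPM in the aposymbiotic library, 1.64-fold with a counting interval of 0.58 to 0.85 on the log2 scale. Per kilobase of coding length these 2 had the highest symbiotic levels of the set, 257 and 262 CPM per kb, against 152 and 160 CPM per kb in the aposymbiotic library.

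Several long genes were also among those with many counts. The longest member lies on scaffold 7 (11271118 to 11287204), with 12 exons and 11739 nt. It had 1214 symbiotic and 547 aposymbiotic counts, 1.78-fold (1.61 to 1.97). Its longest exon has 6030 nt. On scaffold 2 (19882854 to 19891401), a model of 6 exons and 7807 nt had 105 CPM in the symbiotic and 60.7 CPM in the aposymbiotic library, 1.73-fold (1.52 to 1.97). With 5592 nt, the 3-exon gene on scaffold 15 (2274058 to 2289545) had 175 symbiotic and 80 aposymbiotic counts, 1.75-fold (1.34 to 2.31); per kilobase it had the lowest symbiotic level of the set, 4.53 CPM per kb against 2.59 CPM per kb in the aposymbiotic library. Coding lengths of 5000 nt or more occurred in 5 of the 42, 11.9% (exact 95% binomial interval over genes 3.98 to 25.6), in 6.14% of the lowered genes and in 5.67% of all tested host genes. In each of the 5 a single exon, of 3649 to 7519 nt, held more than 50% of the coding length.

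The shortest members had fewer counts and wider intervals, apart from the scaffold 12 gene of rank 8. A single-exon model of 369 nt on scaffold 3 (6797863 to 6798231) had 154 symbiotic and 64 aposymbiotic counts, 1.93-fold (1.43 to 2.62). On scaffold 12 (1936647 to 1937431), a 3-exon model of 444 nt had 134 symbiotic and 52 aposymbiotic counts, 2.06-fold (1.49 to 2.90). The gene of 537 nt on scaffold 10 (11823904 to 11825026) had 106 symbiotic and 44 aposymbiotic counts, 1.93-fold (1.35 to 2.81), and the one of 639 nt on scaffold 2 (126781 to 128966) had 156 symbiotic and 73 aposymbiotic counts, 1.71-fold (1.29 to 2.29). All of these overlap in their intervals, so no order among them can be read at this depth.

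Raised genes, like lowered ones, had few exons. Exons that overlap in alternative models were merged for this count. The median was 4 exons (order-statistic 95% interval over genes 3 to 6) among the 42, 4 (3 to 6) among the 114 lowered genes, and 8 over all tested host genes. Genes of 10 or more exons were 5 of the 42, 11.9% (3.98 to 25.6), and made up 18.4% of the lowered genes (11.8 to 26.8) and 42.3% of all tested host genes (41.3 to 43.3). Single-exon models made up 9 of the 42, 21.4% (10.3 to 36.8), 16 of the 114 lowered and 9.83% of all tested host genes. Genes are not replicates, so these intervals describe shares and are no test.

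Exon number also moved with level over all tested host genes, from a median of 4 exons at 10 to 20 CPM to 14 at 100 CPM or more. Within each class of level except 20 to 50 CPM, where both medians were 7, the median of the raised genes was below that of all tested genes. It was 3 exons in raised against 4 in tested genes at 10 to 20 CPM, 4 against 11 at 50 to 100 CPM and 5.5 against 14 at 100 CPM or more. Coding length differed less: the median was 1332 nt (1098 to 1773) in raised, 1281 nt (1053 to 1551) in lowered and 1506 nt (1482 to 1530) in all tested host genes. Genomic span had medians of 2662 bp in raised, 3804.5 bp in lowered and 5897 bp in all tested host genes. Alternative exon boundaries were annotated in 8 of the 42, 19.0%, against 18.6% of tested host genes.

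**Figure D3:**
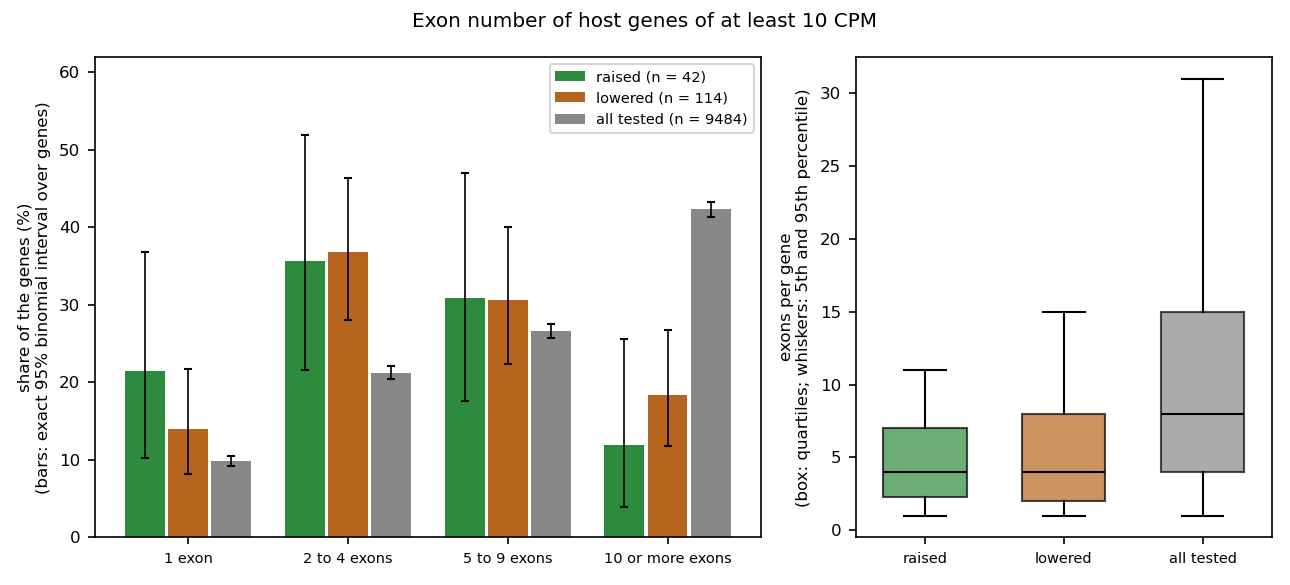
The left panel shows the share of raised, lowered and all tested host genes in 4 classes of exon number, with exact 95% binomial intervals over genes (bars), and the right panel the exons per gene (box for quartiles, line for the median, whiskers for the 5th and 95th percentile). Genes of 10 or more exons are 11.9% of the raised and 42.3% of the tested genes, and the lowered genes (18.4%) lie nearer to the raised ones.

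Median log2 ratios were similar in the 4 exon classes, 0.80 for 1 exon, 0.87 for 2 to 4, 0.83 for 5 to 9 and 0.86 for 10 or more. The lower ends of the ranges are fixed by the rule, and the upper ends are set by a few genes. The 9 single-exon members had log2 ratios between 0.72 and 0.92, the 15 of 2 to 4 exons 0.70 to 1.45, the 13 of 5 to 9 exons 0.76 to 3.85 and the 5 of 10 or more exons 0.83 to 1.86. Symbiotic levels of the single-exon members ran from 20.1 to 94.6 CPM and aposymbiotic levels from 10.7 to 54.0 CPM. The most certain of them was an 888 nt model on scaffold 9 (16429968 to 16430855) with 442 symbiotic and 187 aposymbiotic counts, 1.89-fold (1.59 to 2.26). Many single-exon models of the annotation share an exact length, and the 369 nt member does so with 201 others, of which 132 had no count in either library. The 888 nt member shares its length with 30 others. Equal length alone does not show that models are copies.

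One single-exon member lies inside another gene. The 825 nt model on scaffold 5 (13419276 to 13420100, plus strand) sits in an intron of 4404 bp of a 24-exon gene on the minus strand, and none of that gene's exons overlaps it. The member had 653 counts (94.6 CPM) in the symbiotic and 299 counts (54.0 CPM) in the aposymbiotic library, 1.75-fold (1.52 to 2.01). The surrounding gene was also higher with algae but below the threshold, at 55.3 CPM in the symbiotic and 39.9 CPM in the aposymbiotic library, a log2 ratio of 0.46 (counting interval 0.23 to 0.72). Strand was not used in the counting, so reads from the intron of the larger gene and reads of the member cannot be told apart here. It was the only one of the 42 that overlaps another model.

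Many raised genes have a look-alike elsewhere in the genome. A look-alike was defined, after the values had been seen, as a model with the same exon lengths in at least 3 consecutive exons, read from the 5′ end, covering at least 50% of the exons of both models. Tandem and dispersed copies of a gene often keep their exon lengths, but no sequence was compared. Of the 31 members with 3 or more exons, 13 had a look-alike, 41.9% (24.5 to 60.9), against 28.9% of the 83 lowered genes and 14.6% of the 7881 tested host genes of that kind. Among genes of 3 to 9 exons the shares were 50% of 26 members, 25.8% of 62 lowered genes and 14.5% of 3866 tested host genes. Some of the 13 are look-alikes of one another, so they are not independent. The interval describes a share and is no test. The header names no option that would count reads aligned to several places, so counts of near-identical copies are uncertain.

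The 13 members have 19 different look-alikes outside the set, and 12 of the 19 had a log2 ratio above 0. Of the 19, 12 had a mean of 10 CPM or more, with log2 ratios from -0.91 to 0.50 and a median of -0.03. The rule holds these below 0.7, since a higher ratio would have made them members, so nothing is read from their lying below the raised genes. The other 7, under 10 CPM and with few counts, all had a log2 ratio above 0, the lowest being 0.01 and 0.06. Only the scaffold 12 model at 7902793 had a counting interval above equality (0.015 to 1.18). No common rise is read from them. Among the 13 members, 5 had another member among their look-alikes.

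On scaffold 1, look-alikes differed in direction. The raised gene of rank 5 has 4 exons of 369, 228, 167 and 334 nt, and the model 2582 bp upstream on the same strand (14269680 to 14271155) has the same 4 lengths and the same 1098 nt. The raised gene had 127 CPM in the symbiotic and 46.1 CPM in the aposymbiotic library, whereas its neighbour had 309 CPM in the symbiotic and 345 CPM in the aposymbiotic library, a log2 ratio of -0.16 (-0.25 to -0.067). A model with these 4 lengths also lies on scaffold 11 (13610392 to 13612005), and it was lower with algae, at 28.5 CPM in the symbiotic and 54.2 CPM in the aposymbiotic library, a log2 ratio of -0.91 (-1.19 to -0.66). Among 3 models of one exon structure, 1 was thus higher with algae, 1 slightly lower and 1 lower. Their counting intervals do not overlap, but the rule chose the higher one by its ratio. The contrast is therefore a description, and the scaffold 11 model is itself one of the lowered genes.

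The genes of rank 2 and 3 also have look-alikes close by. The scaffold 6 gene of rank 2 shares 4 consecutive exon lengths with a 7-exon model 9943 bp to its right on the same strand (14981464 to 14985273), which had 9 symbiotic and 4 aposymbiotic counts, too few to show a difference. The scaffold 12 gene of rank 3 shares exons of 246, 339 and 240 nt with a pair of 6-exon models upstream on the same strand. The nearer (1983191 to 1994532) had 58 symbiotic and 46 aposymbiotic counts, a log2 ratio of 0.01 (-0.57 to 0.61). The farther (1857872 to 1866456) had 32 symbiotic and 15 aposymbiotic counts, a log2 ratio of 0.68 (-0.15 to 1.76). The intervals of both upstream models include equality, and that of the farther one is wide.

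For 4 members, 1 on scaffold 2, 1 on scaffold 4 and 2 on scaffold 14, the look-alike lay on the same scaffold and had a counting interval that includes equality. On scaffold 2, a 3-exon gene (7092878 to 7095827, minus strand) and a model on the plus strand 14521 bp to its left share all 3 lengths, 864, 181 and 1244 nt. The raised gene had 221 symbiotic and 93 aposymbiotic counts, and the other 392 symbiotic and 280 aposymbiotic counts, a log2 ratio of 0.16 (-0.059 to 0.39). The look-alike thus had more counts in both libraries. On scaffold 14, a 6-exon gene (5537105 to 5539367) had 254 symbiotic and 108 aposymbiotic counts, while a look-alike 13213 bp to its left had 347 CPM in the symbiotic and 351 CPM in the aposymbiotic library. Also on scaffold 14, the 4-exon gene at 9055190 to 9059768 had 152 symbiotic and 69 aposymbiotic counts, and its look-alike 12512 bp to the right had 106 CPM in the symbiotic and 109 CPM in the aposymbiotic library. Both scaffold 14 look-alikes were nearly level between the libraries. The 4-exon gene on scaffold 4 (3581464 to 3583259) had 136 CPM in the symbiotic and 79.5 CPM in the aposymbiotic library, and its look-alike 36505 bp to the right 26.6 CPM in the symbiotic and 29.5 CPM in the aposymbiotic library.

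In a dispersed family the look-alikes were partly higher too. The 8-exon gene of rank 9 on scaffold 3 shares 6 consecutive exon lengths, 126, 269, 104, 97, 156 and 178 nt, with 6 models on scaffolds 3, 5, 10 and 12. Of the 6, 4 had log2 ratios between 0.40 and 0.56 with counting intervals above equality, and the other two, both on scaffold 10, had 0.08 and -0.13. The raised gene had 57.2 CPM in the symbiotic and 26.7 CPM in the aposymbiotic library. Its most similar relative by ratio, on scaffold 12 (7902793 to 7906022), had 75 symbiotic and 40 aposymbiotic counts.

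A pair of look-alikes on scaffold 5 were both raised. The genes at 10486971 to 10497219 and 7805575 to 7815543, 2671427 bp apart and both on the minus strand, have 7 exons each and share the last 6 lengths, 112, 135, 243, 276, 276 and 185 nt. The first had 276 symbiotic and 123 aposymbiotic counts, 1.80-fold (1.45 to 2.24), and the second 191 symbiotic and 85 aposymbiotic counts, 1.80-fold (1.39 to 2.35). Each has a 6-exon minus-strand model of 1410 nt directly to its left, and these neighbours share exons of 238, 220, 198 and 115 nt. Beside the first gene that model had 95 symbiotic and 76 aposymbiotic counts, a log2 ratio of 0.00; beside the second it had 111 symbiotic and 67 aposymbiotic counts, a log2 ratio of 0.39. The pairs of models thus look alike as pairs.

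**Figure D4:**
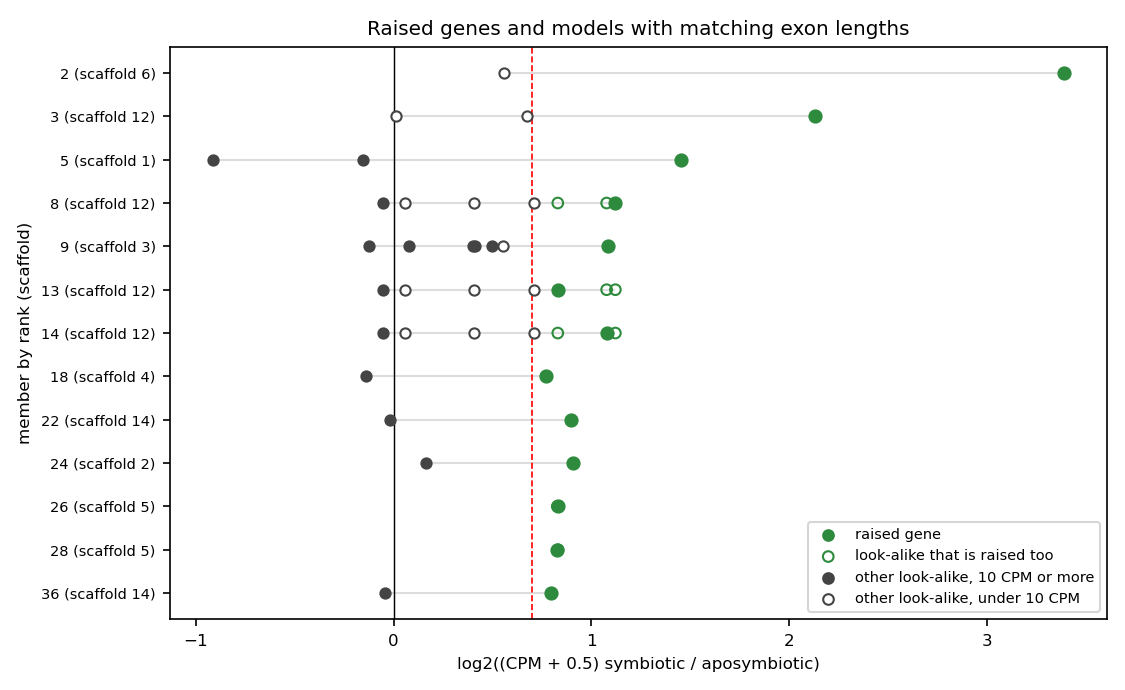
Each row is one of the 13 raised genes with a look-alike, with the log2 ratio of CPM, symbiotic over aposymbiotic (0.5 CPM added), on the horizontal axis: filled green for the gene, open green for a look-alike that is itself raised, black and open black for look-alikes above and below 10 CPM. In the scaffold 1 row the look-alikes lie at -0.16 and -0.91 and the raised gene at 1.45; the 2 scaffold 5 genes are each other's look-alike at 0.83, so that their symbols coincide.

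Scaffold 12 held more members than any other scaffold, 6 of its 463 tested genes, 1.30%, where the other 14 scaffolds with members held 0.163% to 0.783%. It also held the only pairs of members next to each other, 4 genes in 2 pairs. Within 278 kb near its start (1936647 to 2215005) lay 4 of the 6. No window of that length elsewhere held more than 2 members, and the only one with 2 also lies on scaffold 12. The stretch was chosen after the values were seen.

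The 4 genes of this stretch are not an unbroken block. Between them lie 10 other tested genes with log2 ratios from -0.81 to 0.35 and a median of -0.0091, 5 of them above 0. Summed, those 10 had 11038 symbiotic and 8895 aposymbiotic counts. The first and second member, at 1936647 and 2003720, were 2.06-fold and 4.46-fold higher. They are separated by 1 tested gene with 63.4 CPM in the symbiotic and 63.1 CPM in the aposymbiotic library. The last pair, at 2186476 (minus strand) and 2202351 (plus strand), are consecutive tested genes 14329 bp apart. The gene at 2202351 has 4 exons and 7929 nt, 7519 nt of it in the first exon, and had 613 symbiotic and 275 aposymbiotic counts, 1.79-fold (1.55 to 2.07).

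**Figure D5:**
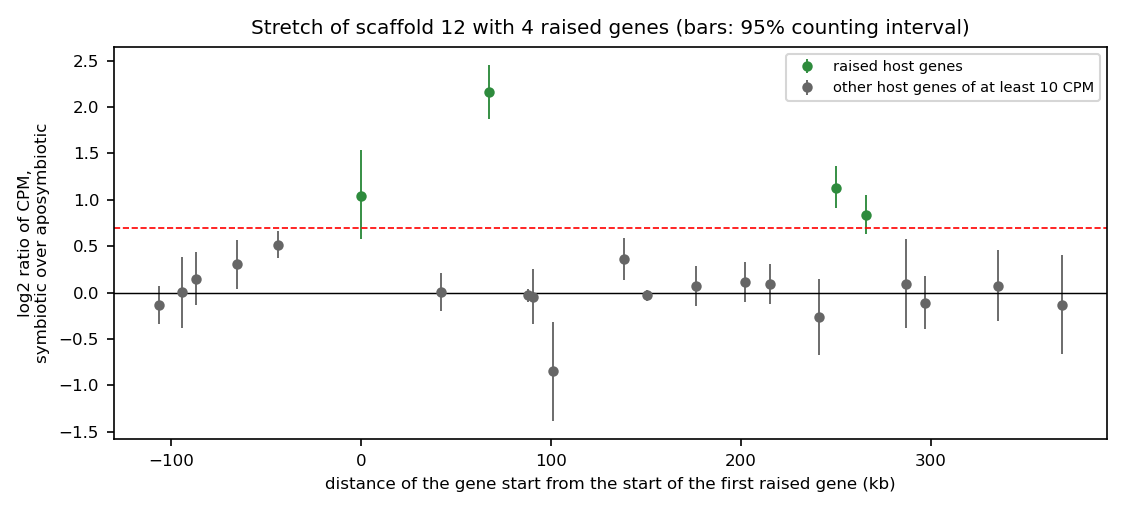
Points are tested genes of scaffold 12 by the distance of their start from the start of the first of 4 raised genes (kb) and their log2 ratio of CPM, symbiotic over aposymbiotic, with 95% counting intervals (bars). The 4 raised genes (green) lie above the dashed threshold of 0.7. The 10 others between them range from -0.81 to 0.35 on the scale with 0.5 CPM added. Tested genes within 100 kb beyond either end are also shown, the highest of them at 0.52 on that scale.

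The second run on scaffold 12 is compact. Along 27.7 kb on the minus strand lie 4 models in a row (14062451 to 14090146), and the middle pair are members. The 3-exon gene at 14065621 (to 14071676) had 332 symbiotic and 144 aposymbiotic counts, 1.85-fold (1.51 to 2.26). The 5-exon gene at 14078981 (to 14082579) had 125 symbiotic and 46 aposymbiotic counts, 2.18-fold (1.54 to 3.12). To their left, the model at 14062451 had 71 symbiotic and 24 aposymbiotic counts, a log2 ratio of 1.16 (0.56 to 1.98); its mean of 7.31 CPM kept it out of the set. The model on the right end had 16 symbiotic and 9 aposymbiotic counts, a log2 ratio of 0.41 (-0.75 to 1.87). All 4 were thus higher in the symbiotic library, the last within counting error.

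Some members at the 2 places on scaffold 12 share an exon signature. Those at 1936647, 2003720 and 14065621 do not carry it. It also occurs elsewhere on this scaffold, in non-members at 10818106, 10830871, 12672163 and 12692959. The members at 2186476, 2202351 and 14078981 all end in exons of 87, 288 and 35 nt, and no other run of 3 exon lengths occurred in as many members. Of all 34573 models, 8 carry this run, all on scaffold 12 and all at their 3′ end, while what precedes it differs widely, from 1 exon of 52 nt to 1 of 7519 nt. A ninth model, the one at 14062451, ends in the last 2 of these lengths. The 3 members had log2 ratios of 1.12, 0.83 and 1.08. The other 5 of the 8 had 288 symbiotic and 228 aposymbiotic counts in sum, a log2 ratio of 0.02 (-0.24 to 0.27), and ranged from -0.18 to 0.71. These 5 are what remains once the carriers that met the rule are set aside, and 2 of them, with 113 symbiotic and 103 aposymbiotic counts and with 101 symbiotic and 84 aposymbiotic counts, make up most of the sum. Of the 9 models that end in the last 2 lengths, 7 had a log2 ratio above 0. Among all tested host genes, which exclude models under 10 CPM, the share was 48.4%. The 7 include the 3 members, which the rule placed above 0. Counting intervals of the models at 10818106, 12672163 and 14088812 include equality, whereas that of the model at 14062451 (0.56 to 1.98) lies above it. No rise of the family is read from these few models.

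Away from scaffold 12 the raised genes stood singly. Of the 82 nearest tested genes on either side of the 42, 4 were members, all on scaffold 12. Members were 0.443% of all tested host genes, so nothing is read from the genes that stood singly. Of the 114 lowered genes, 22 lay next to another lowered gene. The other 78, which the rule holds below 0.7, had log2 ratios from -0.63 to 0.52 with a median of -0.02. Of these, 36 (46.2%) lay above 0, against 48.4% of all tested host genes. Of the 84 nearest models of any level, 5 had no count in either library, 5.95%, against 28.4% of all models. The share beside the other tested host genes was not computed, so nothing about raised genes is read from this. The tested neighbour with the highest ratio that is no member lies to the left of the scaffold 13 gene at 10287390, on the opposite strand, with 120 CPM in the symbiotic and 83.5 CPM in the aposymbiotic library.

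At the threshold, members and other genes differ little in log2 ratio, and where counts are low the difference is a matter of a few counts. Just inside lay the 3-exon gene on scaffold 13 at 10287390 (112 symbiotic and 54 aposymbiotic counts, log2 ratio 0.70), the scaffold 5 gene at 14323388 (1423 symbiotic and 694 aposymbiotic counts, 0.71) and a single-exon model on scaffold 6 at 2143380 (150 symbiotic and 72 aposymbiotic counts, 0.72). A model on scaffold 13 at 11873434 had the same 2 counts as the last. Just outside lay models on scaffold 1 at 17205985 and scaffold 4 at 15821833, each with 95 symbiotic and 46 aposymbiotic counts and a log2 ratio of 0.69, and one on scaffold 5 at 2487784 with 127 symbiotic and 62 aposymbiotic counts and 0.69. Under the level of 10 CPM, a single-exon model on scaffold 7 at 6765822, with 126 symbiotic and 0 aposymbiotic counts, missed the set at a mean of 9.12 CPM.

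The member with the most exons, 21, lies on scaffold 4 (11270157 to 11279417, 4243 nt). It ranked 15 by its interval, with 473 symbiotic and 210 aposymbiotic counts, 1.80-fold (1.53 to 2.13). The 15 members outside the naming rule had 91 to 343 counts in the symbiotic and 42 to 148 in the aposymbiotic library, and log2 ratios from 0.72 to 0.91. The lower ends of their counting intervals ran from 0.25 to 0.61 on the log2 scale. Their mean levels were all at most 38.2 CPM.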

How the data were processed

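Per the file headers, the deposited counts are read pairs over the exons of a BRAKER3 annotation, obtained by the authors using featureCounts (Subread 2.1.1) and no strand setting. Other tools in the submitters' processing notes are deepTools 3.5.6, STAR 2.7.11b and fastp 1.1.0. The deposited exon length is not a unit of level; it is a multiple of 3 in 98.4% of models and is called coding length. The labels name polyA RNA as the molecule, whereas their protocol describes total RNA without ribosomal RNA.

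From these counts CPM on column totals, log2 ratios with 0.5 CPM added, exact 95% counting intervals (Clopper-Pearson on the symbiotic share of both counts, without the added 0.5 CPM) and binomial or order-statistic intervals over genes were computed (Python 3.11.15, numpy 2.4.6, pandas 2.3.3, scipy 1.17.1, matplotlib 3.10.9). With 1 library per group no test was possible; the calculation was checked on simulated counts. Named genes were the first 15 by the lower interval end, the 8 most abundant, the 5 longest, the 5 shortest, neighbouring members and 3 genes on each side of the threshold; other loci were chosen after their values were seen. The members and lists were chosen with earlier results of these data known. At most 2 identifiers are printed, since names are not paired with them. Alternatives were the scalings of edgeR 4.0.16 (R 4.3.3), totals without the 100 largest genes, pseudocounts, level filters, thresholds and a stricter interval. All columns of counts were used.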

Additional observations from a re-analysis of the deposited data

How the results depend on the processing

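The 42 genes were all kept under 4 other scalings (upper quartile, TMM, RLE and leaving the 100 largest genes out of the totals), which gave 44 to 48 genes and shifted the median ratio of all tested genes by at most 0.028. With 5 CPM added, 26 genes were left, with a median log2 ratio of 0.78, 11.5% with a single exon, and all 26 intervals above equality. The log2 ratios of the first 2 genes were then 3.22 and 2.08, and that of the gene on rank 3 was 1.92. A mean of at least 5 CPM gave 98 genes, each with an interval above equality. At least 1 CPM gave 458 genes, 215 of them with such an interval, 47 next to another member, a median length of 862.5 nt and 45.6% with a single exon. With no filter these were 1124, 253, 154, 765 nt and 62.3%. At 20 CPM 2 members were neighbours and 14.3% had a single exon. A threshold of 0.5 gave 175 genes (all 175 with intervals above equality, 14 neighbours, median 0.59). A threshold of 1 gave 11 (all 11 above equality, 0 neighbours, 0% single-exon, median 1.38). A stricter interval left 40 of 42 above equality. Of 162 alternative ratios of 27 named genes, 160 stayed within their counting interval and 0 changed sign. No paired analysis was possible because there is 1 library per group. Depth limits genes near the threshold, whose intervals reach 0.25.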
